A study of Mus musculus with 6 samples.

Results

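Small nucleolar RNAs and a handful of other short noncoding RNAs were examined in total RNA of cells sorted as mouse retinal ganglion cells (RGCs), the neurons that send signals from the retina to the brain. Rows of the deposited table were taken if the gene symbol was Snora, Snord or Scarna followed by a number, or was Rn7sk, Rmrp, Rpph1, Terc, Rny1 or Rny3, and if at least 5 reads were counted over the 6 libraries. The members were thus chosen by their summed count, so which rows reach that count is given below, by length and by overlap with other genes, as a description with no test. Of 55573 genes, 159 rows had such a symbol and 18 reached 5 counts: 4 Snora, 7 Snord and 4 Scarna genes, together with Rn7sk, Rny1 and Rny3. Rmrp, Rpph1 and Terc stood at 0 in every library.

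All libraries came from C57BL/6 mice in which both Myh9 and Myh10, the heavy chain genes of nonmuscle myosin IIA and IIB, were floxed. The group labelled dKO (3 libraries) had received AAV2-Cre in the eye and the group labelled WT (3 libraries) AAV2-GFP, 2 weeks before tissue was taken, so the controls also carry floxed alleles and a viral vector. AAV2 is an adeno-associated virus that delivers a gene to cells it infects, and the cells it reaches set where Cre is made; neither the promoter nor the ages of the mice were found in the labels. Each library pooled 3 retinas from 3 mice. Whether replicates of a group share mice is not stated, and the p-values below speak only of how these 6 libraries vary, part of which may be technical.

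C/D snoRNAs (Snord genes) guide 2′-O-methylation of ribosomal RNA and H/ACA snoRNAs (Snora genes) guide pseudouridylation, while a few members of both classes help cut the ribosomal RNA precursor. Scarna genes encode their relatives in Cajal bodies, which guide the same modifications in spliceosomal RNAs. Most vertebrate snoRNAs are cut out of introns of host genes. Rn7sk encodes 7SK, an RNA polymerase III transcript that holds the transcription elongation factor P-TEFb in an inactive complex, and Rny1 and Rny3 encode Y RNAs, the partners of the Ro60 protein.

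Sequences of the 6 members with more than 100 counts are shown because the comparison rests on them, with Snord104 as an example of a short snoRNA. They are GENCODE M21 transcripts on GRCm38, written 5′ to 3′ with T for U. Rn7sk (chr9:78175303-78175633, minus strand, 331 nt) is shown by its first 150 bases and Scarna2 (chr3:108554338-108554751, minus strand, 414 nt) by its last 150. In Rn7sk capitals mark the letters GATC; GAUC repeats in the 5′ hairpin of 7SK are the known binding site of the P-TEFb inhibitor HEXIM1. The C/D RNAs carry a C box near the start and a D box near the end, here the letters TGATGA and CTGA. Capitals mark these letters in Scarna2, Scarna6 (chr1:87784556-87784820, plus strand), Snord17 (chr2:144265979-144266216, minus strand) and Snord104 (chr11:106500993-106501062, plus strand). In Scarna2 the TGATGA lies inside the RNA, at bases 346 to 351 of the whole transcript. The search near the start described below therefore does not count it as a C box. H/ACA RNAs end in ACA followed by 3 further bases, which capitals mark in Scarna13 (chr12:105031075-105031349, minus strand) and Snora73b (chr4:132352322-132352526, minus strand).
Rn7sk: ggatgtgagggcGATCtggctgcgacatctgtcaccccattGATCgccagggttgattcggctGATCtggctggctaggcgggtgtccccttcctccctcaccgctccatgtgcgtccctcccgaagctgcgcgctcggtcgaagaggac
Scarna2: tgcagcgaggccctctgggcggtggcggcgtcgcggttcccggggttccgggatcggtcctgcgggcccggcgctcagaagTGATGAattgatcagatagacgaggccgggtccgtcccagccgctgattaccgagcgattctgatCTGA
Scarna13: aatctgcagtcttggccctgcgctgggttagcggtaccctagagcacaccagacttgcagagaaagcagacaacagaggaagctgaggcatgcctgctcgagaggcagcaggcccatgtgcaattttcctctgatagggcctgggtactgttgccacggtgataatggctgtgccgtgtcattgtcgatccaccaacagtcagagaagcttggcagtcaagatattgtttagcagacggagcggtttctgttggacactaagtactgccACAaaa
Scarna6: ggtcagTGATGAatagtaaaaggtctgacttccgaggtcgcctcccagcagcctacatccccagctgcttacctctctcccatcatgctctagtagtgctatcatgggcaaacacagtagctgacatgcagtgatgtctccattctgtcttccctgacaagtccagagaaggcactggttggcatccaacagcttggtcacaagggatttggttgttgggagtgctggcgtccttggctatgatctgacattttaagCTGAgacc
Snora73b: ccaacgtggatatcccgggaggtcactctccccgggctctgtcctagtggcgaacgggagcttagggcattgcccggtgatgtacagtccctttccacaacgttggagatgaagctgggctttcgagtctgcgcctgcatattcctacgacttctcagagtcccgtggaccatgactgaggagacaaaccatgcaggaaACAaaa
Snord17: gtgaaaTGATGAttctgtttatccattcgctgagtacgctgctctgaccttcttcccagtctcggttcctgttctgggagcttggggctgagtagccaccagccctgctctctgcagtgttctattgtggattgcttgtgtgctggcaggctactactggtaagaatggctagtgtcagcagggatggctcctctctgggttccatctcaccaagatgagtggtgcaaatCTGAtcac
Snord104: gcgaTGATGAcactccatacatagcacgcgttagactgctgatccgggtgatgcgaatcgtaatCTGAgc

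The motifs were searched on the RNA strand only. TGATGA in the first 25 bases together with CTGA in the last 15 was found in 68 of 99 Snord rows, 4 of 10 Scarna rows and 0 of 42 Snora rows, and in 0.270% of 141515 annotated transcripts of at least 60 bases. ACA placed 3 bases before the end was found in 35 of 42 Snora rows, 2 of 10 Scarna rows, 0 of 99 Snord rows and 2.45% of those transcripts. TGATGA anywhere in the last 414 bases with CTGA in the last 15, the looser form marked in Scarna2, was found in 1.48% of those transcripts. At least 3 copies of GATC in the first 70 bases, as in Rn7sk, occurred in 0.114% of them. Of the members, 3 of 7 Snord genes held both C/D motifs in these windows and 4 of 4 Snora genes held the terminal ACA. A match describes letters and was not tested as a working site.

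Targeted and marker genes were checked before the small RNAs were compared. Myh9 stood at 63.7, 66.3 and 58.2 CPM in the libraries labelled dKO (replicates 1 to 3; CPM, counts per 1000000 of the TMM-scaled library) and 63.6, 68.4 and 60.7 CPM in those labelled WT. Myh10 stood at 19.2, 20.6 and 14.2 CPM in the libraries labelled dKO and 19.9, 19.96 and 16.3 CPM in those labelled WT. Neither target was detectably lower (edgeR adjusted p = 0.908 and 0.735), and counts over whole genes do not check a deletion of single exons. The 16 RGC markers together took 0.0353 to 0.0387% of counts other than ribosomal RNA in the libraries labelled dKO and 0.0256 to 0.0303% in those labelled WT. The 12 markers of Müller glia and astrocytes took 3.16 to 3.42% in the libraries labelled dKO and 3.06 to 3.16% in those labelled WT, so the RGC label rests on sparse transcripts. Total counts were 4569880 to 5634316 in the libraries labelled dKO and 4730540 to 6146226 in those labelled WT. Most were ribosomal RNA: 1 row, CT010467.1, held 89.8, 91.2 and 64.2% in dKO replicates 1 to 3 and 90.2 to 92.8% in the libraries labelled WT. All other genes together had 576060, 453327 and 1636581 counts in the libraries labelled dKO and 346037 to 499313 in those labelled WT.

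Counts of the 159 rows were concentrated in the longest RNAs. Members with at least 100 counts were 205 to 414 nt long (6 genes, median 270), and the other 12 members 70 to 184 nt (median 106). The 140 rows under the floor with an annotated position had a median length of 94 nt. Of 12 rows of at least 200 nt, 6 were those abundant members and the other 6 had 0 counts. These were Snora73a, Scarna10, Rpph1, Terc and both rows named Rmrp.

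Rows that share bases with an exon of another gene on the same strand were nearly all at 0. This held for 74 of 77 such rows, against 38 of 81 rows with no such overlap. Among H/ACA snoRNAs it was 28 of 28 overlapping rows against 1 of 14 others, and among C/D snoRNAs 39 of 41 against 35 of 58. Scarna13, which shares bases with Mir3069, was the only overlapping row to reach 5 counts. Rpph1, the RNA of RNase P, overlaps an exon of Ccnb1ip1, and the rows named Rmrp, the RNA of RNase MRP, overlap each other. Terc, the telomerase RNA, also has 2 rows in the deposited table, of which 1 has no position in GENCODE M21. The Terc row with a position shares no bases with an exon of another gene on its strand in GENCODE M21. Whether the 2 Terc rows overlap in the annotation used for counting is not known. How reads on shared bases were counted is not given in the sources used here, so a 0 in the overlapping rows cannot be read as absence of the RNA. A 0 without overlap is no proof of absence either, since only the members were searched for near-copies. The numbered Snord116 rows within Snhg14 are among those without overlap. The part of overlap or of length in the counts was not tested.

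**Figure D1:**
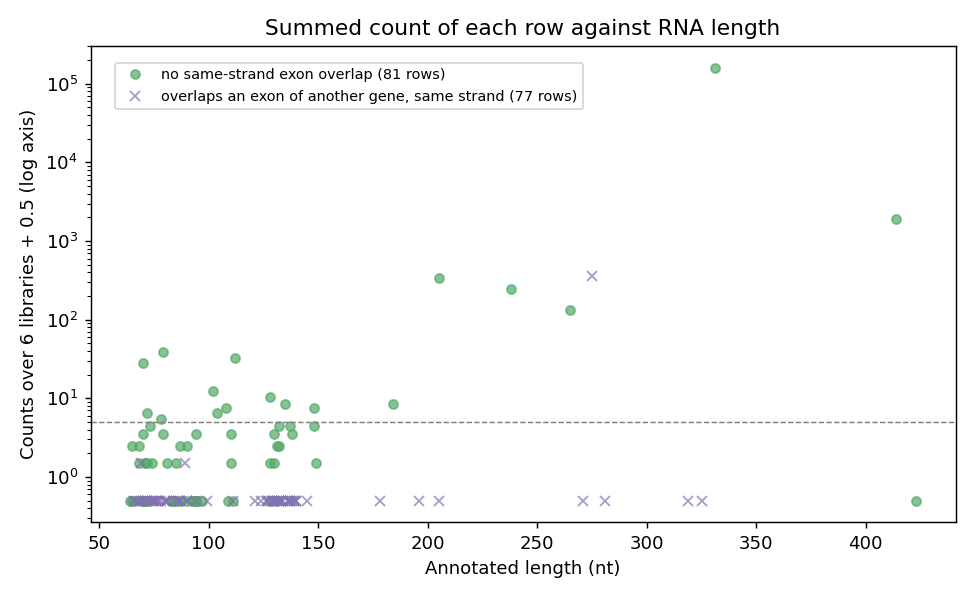
Summed count over the 6 libraries plus 0.5 (log axis) against annotated length in nt for the 158 rows with a GENCODE M21 position; green circles have no same-strand exon overlap, purple crosses do, and the dashed line marks the floor of 5 counts. The 6 members with at least 100 counts all lie at 205 nt or more, and all but 3 crosses sit at 0 counts.

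Just inside the floor were Snord13, Snord49a and Snord53, with 6, 6 and 5 counts over the 6 libraries. Just outside it, 10 rows had 3 or 4 counts, among them Scarna9, Snora17, Snora21 and Snora30 with 3, 4, 4 and 3.

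Most of the measurable small RNAs stood somewhat higher in the libraries labelled dKO, led by Snord17, Scarna2 and 7SK, but of these only Scarna2 passed the test and dKO replicate 1 held the highest value of each. The H/ACA snoRNA Snora73b and the composite scaRNA Scarna6 overlapped between the groups. Over all 8444 genes tested, 62 were higher in the libraries labelled dKO, which is 0.734%, and 100 were lower, which is 1.18%, together 1.92%. The 6 members that could be tested had 1 higher and 0 lower (edgeR, adjusted p under 0.05), and 3 had an unadjusted p under 0.05, all higher. At that unadjusted threshold 12.5% of all genes tested passed, and 5.66% passed with a higher level in the libraries labelled dKO. DESeq2 also called 1 member higher and 0 lower, but that member was Rn7sk; of all genes it called 0.308% higher and 0.308% lower. All 6 tested members had a positive log2 fold change, with a median of 0.33, against -0.00070 over all genes tested. Values of all 3 dKO libraries lay above all 3 WT libraries for 4 of the 6, namely Rn7sk, Scarna2, Scarna13 and Snord17, against 8.66% of all genes tested. As shares of counts other than ribosomal RNA, the same 4 were so separated, against 9.50% of all genes tested. The 6 are the members abundant enough for the filter, not the whole family.

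**Figure D2:**
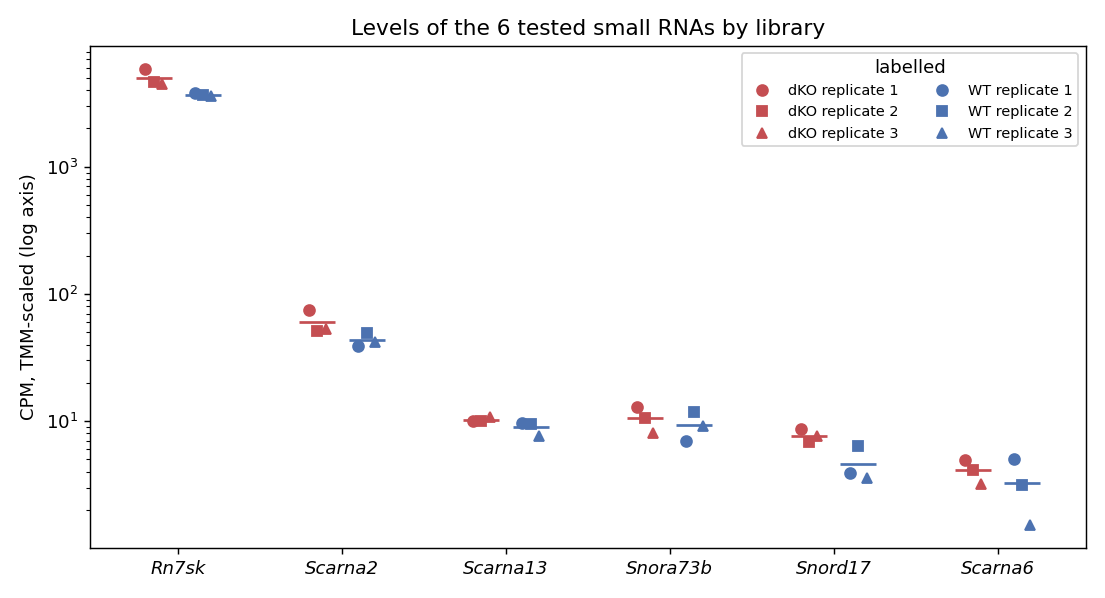
Level in CPM after TMM scaling (log axis) of the 6 tested small RNAs, with libraries labelled dKO in red left of those labelled WT in blue; marker shapes give the replicate and horizontal lines the group mean. The groups of Rn7sk, Scarna2, Scarna13 and Snord17 are separate, and those of Snora73b and Scarna6 overlap.

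Rn7sk dominated the members, with 98.1% of their 164105 counts, and ranked 2 among all genes of the table, after the ribosomal RNA row. It had 30698, 19146 and 68252 counts in dKO replicates 1 to 3 and 17238, 11515 and 14093 counts in WT replicates 1 to 3. Scaled, its level was 5892, 4646 and 4457 CPM in the libraries labelled dKO and 3767, 3648 and 3594 CPM in those labelled WT. All 3 dKO values lay above all 3 WT values, and dKO replicate 1 stood apart from the other 2. As a share of counts other than ribosomal RNA, Rn7sk took 4.57% ± 0.654 in the libraries labelled dKO and 3.33% ± 0.129 in those labelled WT (SD, n = 3 each).

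The log2 fold change of Rn7sk was 0.45 ± 0.13 (SE; 95% interval 0.18 to 0.71), and it narrowly missed the threshold (quasi-likelihood test of edgeR with Benjamini-Hochberg adjustment, adjusted p = 0.0570). Without the ribosomal RNA row the log2 fold change was 0.45 ± 0.082 and the adjusted p 0.000103, and DESeq2 gave an adjusted p of 0.000302. Without dKO replicate 1 the log2 fold change was 0.32 (edgeR adjusted p = 0.281), and without dKO replicate 3 it was 0.53 (edgeR adjusted p = 0.00448). No other annotated transcript matched Rn7sk over 80% of its length at 90% identity. Gm24447, with 409 counts, shared a perfect stretch of at least 50 bases. Copies outside the annotation were not searched.

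Scarna2 was the only one of the 6 tested members to pass. This scaRNA, whose human counterpart guides 2′-O-methylation of the U2 spliceosomal RNA, stood at 75.4, 51.4 and 53.4 CPM in the libraries labelled dKO and 39.1, 49.7 and 41.8 CPM in those labelled WT. Its groups did not overlap, although dKO replicate 2 lay close above WT replicate 2. The log2 fold change was 0.46 ± 0.11 (SE; 95% interval 0.24 to 0.69; edgeR adjusted p = 0.00794). DESeq2 (adjusted p = 0.156) and limma-voom (adjusted p = 0.0501) did not call it, nor did edgeR without WT replicate 1 (log2 fold change 0.38, adjusted p = 0.195) or without dKO replicate 1 (0.29, adjusted p = 0.215). Scarna2 lies in no host gene on its strand in GENCODE M21.

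Scarna13 and Scarna6 were the other scaRNAs tested, and neither passed. Scarna13, an H/ACA scaRNA in the host noncoding gene Snhg10, was at 9.98, 9.95 and 10.7 CPM in the libraries labelled dKO and 9.62, 9.51 and 7.65 CPM in those labelled WT (log2 fold change 0.22 ± 0.17, SE; edgeR adjusted p = 0.682). Its 95% interval of -0.13 to 0.56 leaves room for a rise as large as that of Scarna2, and its log2 fold change was 0.12 without WT replicate 3. Scarna6, whose human counterpart joins a C/D and an H/ACA unit in 1 RNA, was at 4.99, 4.13 and 3.20 CPM in the libraries labelled dKO and 5.03, 3.17 and 1.53 CPM in those labelled WT. The Scarna6 groups overlapped, and its log2 fold change was 0.19 ± 0.31 (SE; edgeR adjusted p = 0.867). It was -0.16 without WT replicate 3 and 0.043 without dKO replicate 1, but 0.73 without WT replicate 1 and 0.46 without dKO replicate 3. Scarna17 was below the test's filter, with 4, 3 and 20 counts in the libraries labelled dKO and 2, 6 and 3 counts in those labelled WT. Its scaled values overlapped, with a mean of 0.934 CPM in the libraries labelled dKO and 1.03 CPM in those labelled WT. Summed over the 4 Scarna members, the level was 75.3 ± 13.8 CPM in the libraries labelled dKO and 56.8 ± 6.65 CPM in those labelled WT (SD, n = 3 each).

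Among C/D snoRNAs only Snord17, which lies in the sorting nexin gene Snx5, was abundant enough to test. It had 45, 28 and 117 counts in the libraries labelled dKO and 18, 20 and 14 counts in those labelled WT. That corresponds to 8.64, 6.79 and 7.64 CPM in the libraries labelled dKO and 3.93, 6.34 and 3.57 CPM in those labelled WT, with no overlap. The log2 fold change of 0.78 ± 0.23 (SE; 95% interval 0.33 to 1.24) was the largest of the 6 tested members, and the edgeR adjusted p of 0.0501 lay just above the threshold. It was 0.0496 without the ribosomal RNA row and 0.0136 without WT replicate 2, but 0.112 and 0.149 with dKO replicate 1 or 3 left out, and 0.298 and 0.251 with WT replicate 1 or 3 left out (edgeR). DESeq2 gave an adjusted p of 0.602.

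The remaining Snord members had 5 to 28 counts each over the 6 libraries. Snord104, a short C/D snoRNA, had 5, 4 and 16 counts in the libraries labelled dKO and 2, 0 and 1 in those labelled WT, so all scaled dKO values were above all WT values. Pooled over the group, 25 counts against 3 gave a ratio of 3.94 after scaling (exact 95% binomial bounds 1.20 and 20.4, counting error only). These bounds leave out variation between libraries. Snord104 reached the floor of 5 counts only through the libraries labelled dKO, so the ratio is a description and no support for a rise. Fitted with every gene of at least 5 counts, its log2 fold change was 1.91 and its edgeR adjusted p 0.335. Snord118 encodes U8, which vertebrate cells need to process the precursor of the large-subunit ribosomal RNAs, and had 1, 1 and 4 counts in the libraries labelled dKO and 0, 2 and 0 in those labelled WT. Snord13 encodes U13, which in human cells takes part in acetylation of the small-subunit ribosomal RNA, and had 0, 1 and 3 counts in the libraries labelled dKO and 1, 1 and 0 in those labelled WT. Snord43, in the ribosomal protein gene Rpl3, had 0, 0 and 6 counts in the libraries labelled dKO and 0, 1 and 0 in those labelled WT. Its row, 108 nt long, is annotated as a microRNA in GENCODE M21, and neither C/D motif was found in its search windows. It is kept among the Snord members by its symbol. Snord49a had 0, 0 and 3 counts in the libraries labelled dKO and 1 in each labelled WT, which placed its scaled dKO values below the WT values. Snord53 had 0, 0 and 4 counts in the libraries labelled dKO and 0, 0 and 1 in those labelled WT. A difference in these 5 members was not detectable at this depth. Summed over the 7 Snord members, the level was 9.34 ± 0.952 CPM in the libraries labelled dKO and 5.69 ± 1.95 CPM in those labelled WT (SD, n = 3 each), and Snord17 made up most of it.

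H/ACA snoRNAs showed no separation of the groups. Snora73b, one of the copies of U17, an H/ACA snoRNA that acts in cutting the ribosomal RNA precursor, stood at 12.9, 10.7 and 8.10 CPM in the libraries labelled dKO and 6.99, 11.7 and 9.18 CPM in those labelled WT. The ranges overlapped, and the log2 fold change was 0.11 ± 0.19 (SE; 95% interval -0.26 to 0.49; edgeR adjusted p = 0.866). It was -0.084 without WT replicate 1 and -0.040 without dKO replicate 1. Snora73b lies within the shared span of Rcc1 and Snhg3 and has a near-identical neighbour there, Snora73a (chr4:132352775-132352979, minus strand), which is shown because reads of the pair can be hard to tell apart. The RNAs are 205 nt long each and differ at 7 bases, an identity of 96.6%, and capitals mark the bases of Snora73a that differ from Snora73b.
Snora73a: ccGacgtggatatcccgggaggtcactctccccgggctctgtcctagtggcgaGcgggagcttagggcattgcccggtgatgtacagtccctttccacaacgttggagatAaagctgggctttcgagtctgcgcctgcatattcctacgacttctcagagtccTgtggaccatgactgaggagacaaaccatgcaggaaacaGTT

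The Snora73a row overlaps an exon of Snhg3 and was at 0 in all 6 libraries, and Gm17300, on the opposite strand at Snora73b, was at 0 too. Snora73b is therefore uncertain as a measure of 1 gene. Snora78, Snora23 and Snora57 had 7 to 10 counts each over the 6 libraries. Snora78, in Snhg9, had 4, 2 and 1 counts in the libraries labelled dKO and 0, 2 and 1 in those labelled WT. Snora23, in the importin gene Ipo7, had 1, 3 and 0 counts in the libraries labelled dKO and 2, 0 and 2 in those labelled WT. Snora57 had 2, 0 and 2 counts in the libraries labelled dKO and 2, 0 and 1 in those labelled WT. Summed over the 4 Snora members, the level was 11.5 ± 2.98 CPM in the libraries labelled dKO and 10.1 ± 2.25 CPM in those labelled WT (SD, n = 3 each).

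The Y RNAs were too sparse to test. Rny1 had 4, 6 and 15 counts in the libraries labelled dKO and 4, 2 and 1 in those labelled WT. Rny3 had 1, 4 and 3 counts in the libraries labelled dKO and 1, 2 and 1 in those labelled WT. Scaled values overlapped for both. The pooled ratio, dKO over WT, was 1.69 for Rny1 (95% exact binomial interval 0.710 to 4.62) and 0.946 for Rny3 (0.253 to 4.29), counting error only.

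Class by class, the log2 ratio of the summed levels, dKO over WT, was 0.18 for Snora, 0.72 for Snord, 0.41 for Scarna and 0.45 for Rn7sk with the Y RNAs. Scaled values of the libraries labelled dKO lay above those labelled WT in the last 3 classes and overlapped in Snora. Single members and libraries carried much of these ratios. The Snord ratio was 0.19 as an unweighted mean over its members, the Scarna ratio 0.21 without Scarna2, and the Snora ratio -0.0023 without dKO replicate 1 and 0.014 without WT replicate 1. Rny1 and Rny3 without Rn7sk had a ratio of 0.67, with overlapping groups. Scaled by the library total alone, the median log2 fold change of all genes tested was 1.21, and the class ratios were 1.222 for Snora, 2.01 for Snord, 1.57 for Scarna and 1.59 for Rn7sk with the Y RNAs. With Rn7sk left out, the other 17 members together stood at 116.1, 88.8 and 88.0 CPM in the libraries labelled dKO and 67.96, 85.9 and 66.8 CPM in those labelled WT, a log2 ratio of 0.41. The 12 members below the filter summed to 5.03 ± 0.801 CPM in the libraries labelled dKO and 3.91 ± 1.28 CPM in those labelled WT (SD, n = 3 each), with overlapping values. Snord43, Snord53, Snord118, Snord13 and Snora78, among others, had fewer than 5 counts in all libraries labelled WT together. They reached the floor only with counts of the libraries labelled dKO. That sum is therefore a description and no support for a rise, and the class sums hold these members too. In these pooled cells, fewer cells of a type and less RNA per cell cannot be told apart.

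**Figure D3:**
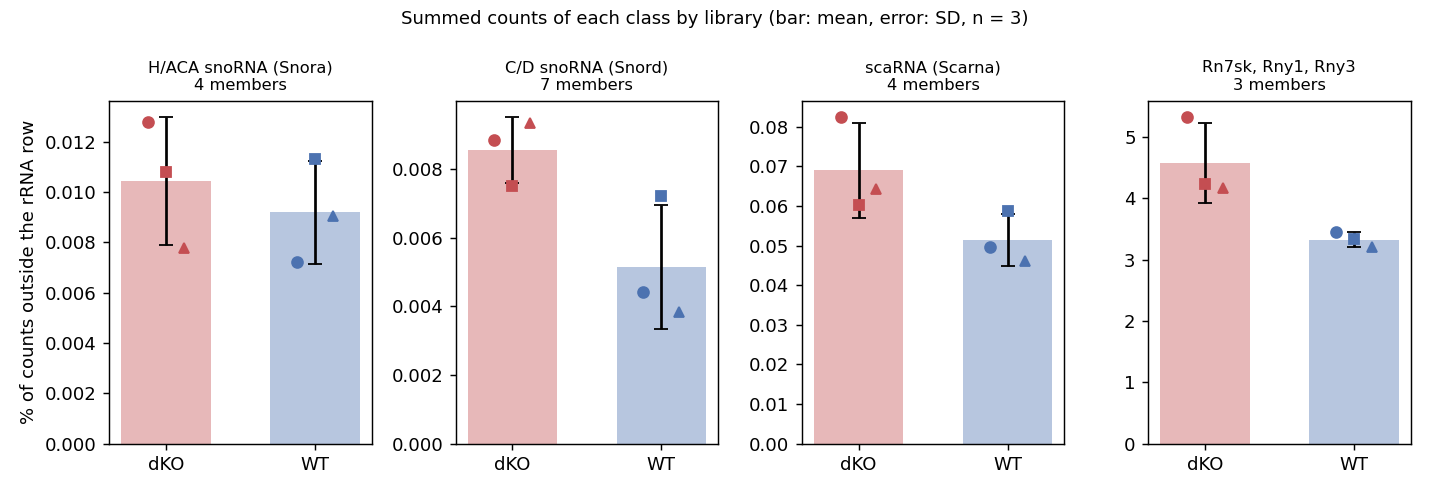
Summed counts of each class as a percentage of counts outside the ribosomal RNA row, with a separate linear axis from 0 for each class; bars are means, error bars SD (n = 3), points single libraries with the replicate as shape, dKO left of WT. Rn7sk, Rny1 and Rny3 took 4.58% ± 0.654 in dKO and 3.33% ± 0.129 in WT, and the Snora values overlap.

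Levels per length put Rn7sk far above the rest. Averaged over the 6 libraries it stood at 13100 CPM per kb of RNA, followed by Scarna2 at 125, Snora73b at 48.4, Scarna13 at 34.8, Snord17 at 25.8 and Scarna6 at 13.9 CPM per kb. The other 12 members lay between 1.09 and 12.5 CPM per kb. Host genes of the abundant members stood lower, per kb of their exons, than the RNA inside them. Snx5 stood at 6.66 CPM per kb against the 25.8 of Snord17, and Atg16l1, an autophagy gene, at 0.520 CPM per kb against the 13.9 of Scarna6. Snhg10 stood at 0.361 CPM per kb, and Rcc1 and Snhg3 at 0.372 and 0.437 CPM per kb. The abundant members were picked by their count, and sparser members went both ways. Rpl3 (17.2), 2410006H16Rik (8.53) and Wdr43 (1.38) stood above Snord43 (1.09), Snord49a (2.28) and Snord53 (1.1) within them, in CPM per kb. Ipo7 (1.46) and Snhg9 (0.258) stood below Snora23 (1.69) and Snora78 (2.87).

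No host gene passed the test. Of 10 genes that contain a member on the same strand, 6 were tested and 0 passed with edgeR or with DESeq2, and 1 of them, Rpl3, had an unadjusted edgeR p under 0.05, a threshold that 12.5% of all genes tested passed. Snx5, the host of Snord17, was at 26.3, 28.4 and 31.1 CPM in the libraries labelled dKO and 26.2, 23.8 and 31.1 CPM in those labelled WT (log2 fold change 0.098 ± 0.117, SE; edgeR adjusted p = 0.799). Atg16l1, the host of Scarna6, had a log2 fold change of 0.21 ± 0.24 (SE; edgeR adjusted p = 0.796). Rpl3, with an edgeR adjusted p of 0.289, and the noncoding gene 2410006H16Rik, the host of Snord49a, with 0.414, did not pass either. Snhg10, Snhg9, Snhg3 and Rcc1 had 10, 2, 16 and 59 counts over the 6 libraries and were not tested.

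**Figure D4:**
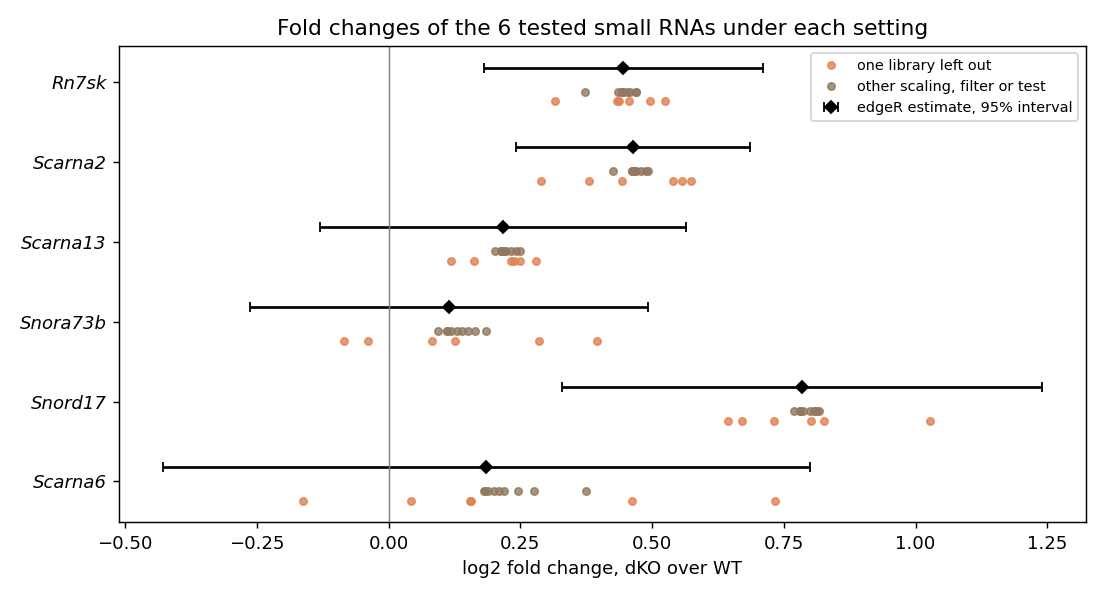
Log2 fold change, dKO over WT, of the 6 tested small RNAs; black diamonds with bars are edgeR estimates with 95% intervals, orange points leave out 1 library each, and brown points use another scaling, filter or test (library-total scaling is not drawn). The intervals of Rn7sk, Scarna2 and Snord17 lie above 0, and single omissions carry Snora73b and Scarna6 below 0.

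No protein partner of these RNAs passed the test. None of 3 tested C/D snoRNP proteins passed (median log2 fold change 0.068), with Nop58 at -0.28 ± 0.23 (SE) and Snu13 at 0.32 ± 0.27. None of 2 tested H/ACA snoRNP proteins passed, the pseudouridine synthase Dkc1 at -0.54 ± 0.36 and Nop10 at -0.0058 ± 0.3815. Of 6 assembly factors none passed (median -0.14), among them the cap hypermethylase Tgs1 (-0.41 ± 0.27) and Rpap3 (-0.50 ± 0.34), which stood at -0.15 and -0.13 without WT replicate 3. In the Cajal body and telomerase list only Tep1 could be tested (-0.065 ± 0.242). None of 5 tested 7SK complex and P-TEFb genes passed (median -0.040), with Hexim1, the 7SK-dependent P-TEFb inhibitor, at 0.42 ± 0.23 and the cyclin Ccnt2 at -0.26 ± 0.18. Hexim1 was at 0.12 without dKO replicate 3 and 0.60 without WT replicate 3, and Ccnt2 at -0.16 without WT replicate 3. Of the Ro and La proteins, Ro60 was at 0.14 ± 0.15 and Ssb at -0.044 ± 0.176. No RNase P or MRP protein of 11 was abundant enough to test.

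The machinery that makes and trims small RNAs did not pass either. None of 19 tested genes of RNA polymerase III and its factors passed (median -0.12). The smallest p in that list belonged to Maf1, a repressor of RNA polymerase III, at 9.41, 11.2 and 11.2 CPM in the libraries labelled dKO and 8.09, 6.65 and 6.12 CPM in those labelled WT (log2 fold change 0.61 ± 0.19, SE; edgeR adjusted p = 0.0637). The catalytic subunit gene Polr3a followed at 0.68 ± 0.28, and at 0.32 without dKO replicate 3. None of 6 end-processing genes passed, with the exosome helicase Mtrex at -0.50 ± 0.20 and the deadenylase Parn at 0.19 ± 0.26. Parn was at 0.067 without WT replicate 2 and 0.33 without WT replicate 3. Over all companion genes, 52 were tested, 2 rose and 0 fell with edgeR, and DESeq2 called 0. At an unadjusted edgeR p under 0.05 there were 6, the 2 that rose with Maf1, Polr3a, Gtf3c1 and Mtrex, against 12.5% of all genes tested.

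The 2 that rose were long noncoding RNAs in the list of 22 snoRNA host and neighbouring noncoding genes, of which 8 were tested (median 0.095). Snhg11 was at 5.18, 4.13 and 4.44 CPM in the libraries labelled dKO and 2.19, 0.951 and 1.02 CPM in those labelled WT (log2 fold change 1.63 ± 0.35, SE; edgeR adjusted p = 0.00191; DESeq2 adjusted p = 0.0824). Meg3, from an imprinted domain rich in C/D snoRNA genes, was at 10.4, 9.22 and 6.14 CPM in the libraries labelled dKO and 2.62, 6.02 and 2.30 CPM in those labelled WT (log2 fold change 1.17 ± 0.26, SE; edgeR adjusted p = 0.00352; DESeq2 adjusted p = 0.0713). The call of Meg3 was lost without WT replicate 1 (edgeR adjusted p = 0.121) or WT replicate 3 (0.0595). Neither contains a member.

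Marker levels of other cell types moved with the groups as well. Rod markers took 0.320 to 0.399% of counts other than ribosomal RNA in the libraries labelled dKO and 0.169 to 0.191% in those labelled WT, and 8 of 11 tested rose. Bipolar markers took 0.126 to 0.132% in the libraries labelled dKO and 0.174 to 0.183% in those labelled WT, and 4 of 8 tested fell. Microglia markers took 0.777 to 0.830% in the libraries labelled dKO and 0.719 to 0.787% in those labelled WT, ranges that overlapped, and 1 of 12 tested, Lyz2, rose (edgeR adjusted p = 0.000392). Endothelial markers (0.327 to 0.338% in dKO, 0.306 to 0.366% in WT) and lymphocyte markers (0.0670 to 0.0781% in dKO, 0.0746 to 0.0791% in WT) overlapped as well, with 0 of 6 endothelial markers called by edgeR and 1 of 5 lymphocyte markers, Gzma, lower (edgeR adjusted p = 0.0369). The endothelial markers Cldn5, Cdh5 and Tek were too sparse to test, with 44, 19 and 25 counts over all libraries. Their mean levels were 0.574, 0.227 and 0.319 CPM in the libraries labelled dKO and 2.103, 1.241 and 1.235 CPM in those labelled WT. Of the glial markers 1 of 12 tested, Gfap, rose (edgeR adjusted p = 4.04e-05), and of the RGC markers 1 of 5, Nefl (edgeR adjusted p = 3.96e-05). No marker of any list was at 0 in all libraries. Tested genes other than the members were also grouped by exon length alone, and kinds of gene were not separated. Under 500 nt, 10 of 61 rose and 18 fell (edgeR), with a median log2 fold change of 0.12. Among 102 genes of 500 to 1000 nt, 0 rose and 2 fell (edgeR), while the median was 0.15 and 76 were positive. Among 8275 genes of 1000 nt and over, 51 rose and 80 fell, with a median of -0.0029. The part of cell makeup and RNA length in the higher small RNA levels was not tested. Without dKO replicate 1 the log2 fold changes were 0.32 for Rn7sk, 0.29 for Scarna2 and 0.73 for Snord17. They were then 0.24 for Scarna13, 0.043 for Scarna6 and -0.040 for Snora73b, and edgeR called 0 of the 6 members. What sets dKO replicate 1 apart was not tested.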

How the data were processed

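RNA of sorted retinal cells, 3 libraries labelled dKO and 3 labelled WT, was purified with PicoPure and made into stranded total RNA libraries without poly(A) selection, per the labels' protocols. The deposited values are whole-number counts per Ensembl gene made by the authors. The build GRCm38, the aligner STAR (2.7.0d) and DESeq2 (1.22.2) are named per the submitters' processing notes. How reads were assigned to genes, with which strand setting and annotation, and what became of reads that map to several places is stated in no source used here. Reads on repeated or shared bases may therefore be lost or split, and RNAs much shorter than the sequenced fragments may be under-counted.

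Counts were fitted as deposited with edgeR 4.0.16 in R 4.3.3 (quasi-likelihood F test on group alone, TMM scaling, filterByExpr with a minimum count of 10 and total of 15, Benjamini-Hochberg adjustment over 8444 genes, threshold 0.05). CPM values are per TMM-scaled library size, and class sums add counts before scaling. DESeq2 1.42.0 and limma 3.58.1 (voom) were alternatives, with other scalings, filters, a replicate block and each library left out. The fit was tested on simulated data in which all genes had the same biological variation. It called 26.9% of genes changed 1.5-fold, 84.8% of those changed 2-fold and 100% of those changed 4-fold. Of 146 calls 6 were false. Small changes can therefore go uncalled here. Positions and sequences came from GENCODE M21 (GRCm38), in which 55480 of 55573 gene IDs were found; near-copies were searched with BLAST 2.17.0 among its transcripts only. Pooled ratios have exact binomial intervals that cover counting error only. For a row at 0 in all libraries that shares no bases with another exon, counting error allows up to 3 counts. That is 7.59e-05% of counts outside the ribosomal RNA row. Reads lost to near-copies are not covered by this bound, and near-copies were searched for the members only. Common biological variation was 0.082 (coefficient).

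The members, companion lists and marker lists were chosen with earlier results of these data known. Per-library values are given for called members, for the 6 single-named RNAs, for up to 6 members of each class by mean CPM and for the tested members with the 3 largest and 3 smallest fold changes. From each companion list up to 3 called genes are named, or else the 2 with the smallest p; Gtf3c1 was named after its values were seen.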

Additional observations from a re-analysis of the deposited data

How the results depend on the processing

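The count of members called higher, 1 of 6 tested, was 3 of 6 with upper-quartile scaling and with CPM of at least 1 in 3 libraries. It was also 3 of 6 without the ribosomal RNA row or at adjusted p under 0.1. With all genes of at least 5 counts it was 3 of 18 tested, and with library totals only 0 of 6. Leaving out 1 library gave 0 to 3 members higher, with 0 without WT replicate 1 or dKO replicate 1. DESeq2 and limma-voom called 1, Rn7sk in place of Scarna2. No setting called a member lower. Over all genes, 62 higher became 3 and 100 lower became 0 with library totals only, and 26 and 26 with DESeq2. With the floor of 5 counts, 95 of 15883 genes tested were higher, and 108 of 8444 were at adjusted p under 0.1. With 1 library left out, 29 to 71 were higher and 61 to 115 lower. There were 66 lower without dKO replicate 3, and 29 higher and 61 lower without WT replicate 1. Companion and host genes called higher, 2, became 0 with library totals only and with DESeq2, and 1 to 3 with 1 library left out.

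Deviations of same-numbered libraries correlated at 0.025, 0.013 and 0.028, and those of differently numbered libraries at -0.021 to -0.003. Values this small neither show nor exclude a pairing of the libraries by replicate number. With the number as a replicate block, edgeR again called 1 member, Scarna2 (adjusted p = 0.00626).

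With library totals only, the median log2 fold change of all genes was 1.21, class ratios were 1.2218 for Snora, 2.0057 for Snord, 1.5727 for Scarna and 1.585 for Rn7sk with the Y RNAs, and signs turned for Nop58 (0.9302), Dkc1 (0.6321), Tgs1 (0.8288), Rpap3 (0.777), Tep1 (1.1024), Ccnt2 (0.9786), Ssb (1.1759), Mtrex (0.7142) and Nop10 (1.2271). The Snord ratio was 0.1872 as an unweighted mean over members, and the ratio of the last class was 0.6685 without Rn7sk. Leaving out 1 library gave ratios of -0.0023 to 0.3672 for Snora, 0.5567 to 1.0271 for Snord, 0.2523 to 0.5035 for Scarna and 0.3155 to 0.5252 for Rn7sk with the Y RNAs.

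Signs also turned for weakly changed genes. Nop10 was at 0.0192 with upper-quartile scaling, 0.0295 with no filter, 0.0113 with the floor of 5 counts and 0.1402 with limma-voom, and Tep1 at 0.01 with the replicate block. With 1 library left out, log2 fold changes ran from -0.0844 to 0.3948 for Snora73b, -0.1624 to 0.7332 for Scarna6, -0.0124 to 0.5863 for Snu13, -0.4286 to 0.4497 for Nop10, -0.2801 to 0.124 for Tep1, -0.1208 to 0.2783 for Ro60 and -0.1627 to 0.0367 for Ssb. The cause of these changes was not tested.

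Depth limits the comparison to 6 of the 18 members: the other 12 had 5 to 38 counts over the 6 libraries. Counts of short RNAs rest on an unstated counting rule, copies outside the annotation were not searched, and 74 of 77 rows that share bases with another exon were at 0.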

Other observations

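Several further short noncoding RNAs lay outside the naming rule and were picked after their values were seen. Rprl3, annotated as a relative of the RNase P RNA, was at 43.95, 32.03 and 28.47 CPM in the libraries labelled dKO and 16.83, 19.64 and 18.36 CPM in those labelled WT (log2 fold change 0.90 ± 0.13, SE; edgeR adjusted p = 1.94e-06). Bc1, a dendritic RNA polymerase III transcript of rodent neurons, was at 5.37, 5.58 and 4.96 CPM in the libraries labelled dKO and 2.19, 1.58 and 3.06 CPM in those labelled WT (log2 fold change 1.16 ± 0.30, SE; edgeR adjusted p = 0.016). Both rose with groups that did not overlap.

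Rows for the RNA of the signal recognition particle and a minor spliceosomal RNA were too sparse to test. Rn7s2 had 14, 4 and 11 counts in the libraries labelled dKO and 1, 0 and 1 in those labelled WT. Scaled, it was at 2.69, 0.971 and 0.718 CPM in dKO and 0.2185, 0 and 0.255 CPM in WT. Rn7s6 had 11, 1 and 17 counts in the libraries labelled dKO and 4, 1 and 5 in those labelled WT. Its scaled values overlapped, at 2.11, 0.243 and 1.11 CPM in dKO and 0.874, 0.317 and 1.275 CPM in WT. Rnu11, a U11 row, had 10, 0 and 14 counts in the libraries labelled dKO and 8, 4 and 2 in those labelled WT. Scaled values of Rnu11 overlapped too, at 1.92, 0 and 0.914 CPM in dKO and 1.75, 1.27 and 0.510 CPM in WT. Rn7s1 had 2, 0 and 8 counts in dKO and 0, 0 and 2 in WT, also overlapping when scaled. As for Rn7sk, Scarna2, Snora73b and Snord17, the highest CPM of Rprl3 was in dKO replicate 1.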
